A study of Mus musculus with 6 samples.

Results

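The 10 genes described here encode the core of the skeletal muscle triad, the junction at which a transverse tubule meets the sarcoplasmic reticulum. They are Ryr1, Cacna1s, Cacnb1, Cacng1, Cacna2d1, Stac3, Jph1, Jph2, Jsrp1 and Trdn, found by matching the Ensembl gene IDs of the deposited tables to these symbols. All 10 were found, each as 1 row among the 41025 genes of every table, and all 10 passed the filter of a mean of at least 1 FPKM (fragments scaled by gene length and by the library total). The RNA was from a fast muscle of the lower hindlimb, the tibialis anterior, and all mice were C57BL/6 and 8 weeks old. Of the 6 libraries, 3 were labelled Mettl21e KO and 3 wild type (WT). Mettl21e encodes a muscle-enriched protein methyltransferase. The sources used here do not say how the knockout was made, the sex of the mice or whether the libraries came from separate mice, and the p-values therefore rest on the spread among these libraries, which may be technical.

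In a skeletal fibre, an action potential that enters the transverse tubule moves the voltage sensor of an L-type calcium channel. That channel is mechanically coupled to the ryanodine receptor of the facing sarcoplasmic reticulum, which opens and releases the calcium that starts contraction. Junctophilins hold the membranes together, and small junctional proteins bring channel, receptor and calcium store into place. Fast muscles depend on this apparatus for rapid calcium release.

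Mettl21e itself had values of 1.64, 1.45 and 1.88 FPKM in the libraries labelled KO, against 2.46, 0.309 and 1.23 FPKM in those labelled WT (log2 difference 0.29, limma adjusted p = 0.988), so its transcript level does not tell the labels apart. The difference was 0.65 with a pseudocount of 0.1, 0.74 with limma voom and -0.07 without library 2 labelled WT, where 8 fragments lay on the gene. The span of Gm15833, at 0.385 to 3.81 FPKM, overlaps that of Mettl21e on the other strand, but 0.0% of the exonic bases of Mettl21e are shared. Directions below are therefore between libraries labelled KO and libraries labelled WT. The library totals recovered from the values were 8476591 to 10435095 fragments in those labelled KO and 8842349 to 10856669 in those labelled WT. The tissue label was checked against 10 markers of skeletal muscle fibres, 9 of which passed the filter. Without Acta1, Ckm and Pygm, which fast and slow fibres share, the other 7 genes summed to 52239 to 55432 FPKM in libraries labelled KO and 49321 to 56967 FPKM in those labelled WT. The fast troponin C gene Tnnc2 did not pass the filter, at 0.374 to 1.45 FPKM and 2 to 7 fragments per library. The troponin genes Tnni2 and Tnnt3 of the same list had means of 10759 and 18200 FPKM over the 6 libraries. Why Tnnc2 was so low was not tested, and its value is not read as absence from the muscle. Heart muscle shares several triad genes, and of 6 cardiomyocyte markers Nppb was at 0 in all 6 libraries and Nppa and Myl7 were at most at 0.273 and 0.175 FPKM. The other cardiomyocyte markers were at low levels, with the cardiac myosin gene Myh6 at 3.58 to 3.95 FPKM in libraries labelled KO and 2.57 to 3.35 FPKM in those labelled WT, Tnnt2 at 2.70 to 4.25 FPKM and Tnni3 at 0 to 1.80 FPKM over the 6 libraries. In bulk muscle, fewer cells of a type and less RNA per cell cannot be told apart.

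No triad gene differed between the labels past the test. Of the 10, 6 were higher and 4 lower on average in the libraries labelled KO, where 43.3% of all tested genes were higher, with log2 differences between -0.16 (Jsrp1) and 0.17 (Cacna2d1) and a median of 0.04, against a median of -0.02 over all 11383 tested genes. limma on log2(FPKM + 1) called 0 of 10 at a Benjamini-Hochberg adjusted p of 0.05, where the share of all tested genes called was 0%, and at an unadjusted p under 0.05 there were also 0 of 10, where the share of all tested genes was 4.59%. limma voom on the recovered fragments likewise called 0, with 0 at an unadjusted p under 0.05. The ranges of the labels overlapped for all 10 genes, where 9.48% of all tested genes had ranges that did not overlap, 3.84% with the libraries labelled KO higher. The 95% intervals of the 10 differences all included 0 and together ran from -0.40 to 0.47, which correspond to 0.760-fold and 1.38-fold, so a change of 2-fold in any of them lies outside its interval.

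**Figure D1:**
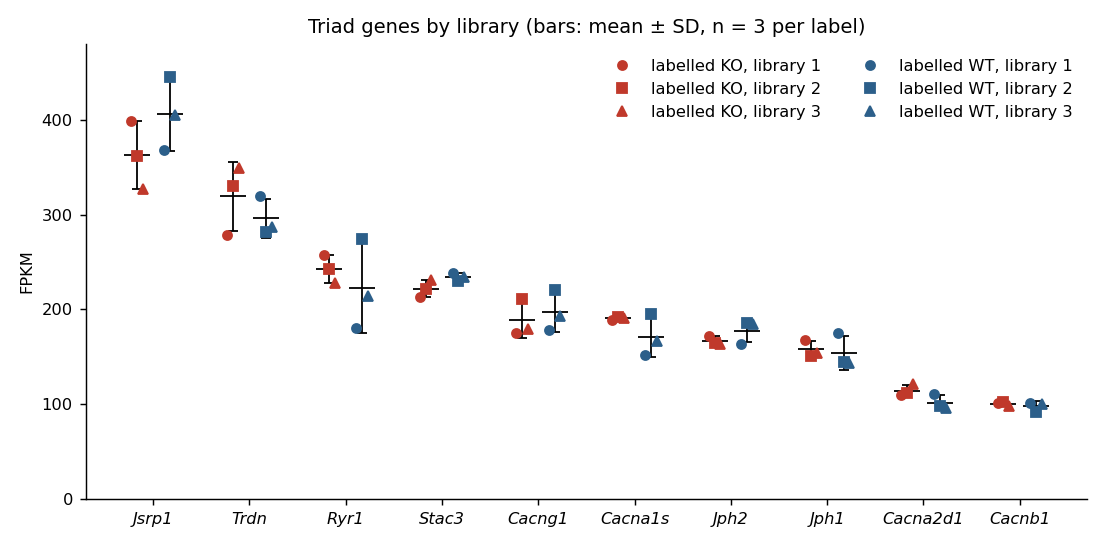
FPKM of the 10 triad genes (y axis) in each library, with libraries labelled KO in red and those labelled WT in blue, symbols for library number, and black bars for mean ± SD (n = 3). Genes are ordered by their mean over the 6 libraries, from Jsrp1 at 384 to Cacnb1 at 99.1 FPKM, and the ranges of the labels overlap for every gene.

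Ryr1 encodes the ryanodine receptor, the calcium release channel of the sarcoplasmic reticulum. In mm10 the gene (ENSMUSG00000030592) spans positions 29003344 to 29125179 of chromosome 7 on the minus strand, and its longest coding transcript has 106 exons. Its level was 258, 243 and 228 FPKM in libraries 1, 2 and 3 labelled KO, with a mean ± SD of 243 ± 15.0 (n = 3). In libraries 1, 2 and 3 labelled WT its level was 180.2, 274 and 214 FPKM, with a mean ± SD of 223 ± 47.5 (n = 3). All 3 libraries labelled KO lay between the lowest and the highest library labelled WT. On the log2 scale the labels differed by 0.14 (SE 0.14, limma adjusted p = 0.988). Without library 1 labelled WT this difference was 0.002, and without library 2 labelled WT it was 0.30. Ryr1 gave 29035 to 45686 fragments per library, so counting error was at most 0.587% of its value, while the coefficient of variation was 6.19% among libraries labelled KO and 21.4% among those labelled WT.

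Cacna1s encodes the pore and voltage-sensing subunit of the L-type channel. It spans positions 136052750 to 136119822 of chromosome 1 on the plus strand (ENSMUSG00000026407, 44 exons in the longest coding transcript). Its level was 189, 192 and 191 FPKM in the libraries labelled KO, with a mean ± SD of 191 ± 1.87 (n = 3), against 152, 195 and 167 FPKM in those labelled WT, with a mean ± SD of 171 ± 21.8 (n = 3). The libraries labelled KO were nearly equal, with a coefficient of variation of 0.979%. They held 6754 to 8399 fragments of Cacna1s, while library 3 labelled WT had the fewest, 6160, where counting error is 1.27%. Only library 2 labelled WT exceeded the libraries labelled KO in level. This gave a log2 difference of 0.16 (SE 0.10, limma adjusted p = 0.988), which was 0.08 without library 1 labelled WT and 0.26 without library 2 labelled WT. Another annotated gene, Gm37759, covers 19.98% of the exonic bases of Cacna1s on the other strand, and its own level was 0.0860 to 0.314 FPKM. The sources used here do not say whether strand was used in assigning fragments.

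Ryr1 and Cacna1s shared their lowest library (library 1 labelled WT) and their highest (library 2 labelled WT). Genes outside the triad set, among them Speg, Camk2g, Kdr and Cdh5, had the same lowest and highest library, so this is not particular to Ryr1 and Cacna1s. The 250 bases before the RefSeq start sites of Ryr1 and Cacna1s are shown as a description only (GRCm38.p6, the mm10 assembly). Each window runs 5′ to 3′ on the strand of the gene. The Ryr1 window is at chr7:29125152-29125401 on the minus strand and the Cacna1s window at chr1:136052561-136052810 on the plus strand. Capitals mark matches to the E-box CANNTG, which reads the same on both strands, and to the MCAT element CATTCC or its reverse GGAATG.
Ryr1: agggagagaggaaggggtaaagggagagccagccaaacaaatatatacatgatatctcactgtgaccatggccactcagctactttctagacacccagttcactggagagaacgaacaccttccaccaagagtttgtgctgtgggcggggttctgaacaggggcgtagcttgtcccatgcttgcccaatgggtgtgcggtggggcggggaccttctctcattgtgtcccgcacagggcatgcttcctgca
Cacna1s: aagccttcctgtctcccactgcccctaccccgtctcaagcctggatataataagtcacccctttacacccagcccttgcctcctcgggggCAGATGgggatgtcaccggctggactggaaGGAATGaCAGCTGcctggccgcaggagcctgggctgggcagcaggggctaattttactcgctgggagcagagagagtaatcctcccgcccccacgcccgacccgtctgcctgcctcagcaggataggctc
The Cacna1s window held 2 E-box matches, with first bases at positions -160 and -123 from the start site, and 1 MCAT match at position -130. The Ryr1 window held 0 of either. An E-box match occurs in 66.2% of all 32851 windows of this length and an MCAT match in 12.6%. A match describes letters and not a bound site. G and C made up 54.8% of the Ryr1 window and 62.4% of the Cacna1s window, where the median of all windows is 52.4%. The table held windows for 5 of the 10 genes, and of these the Cacna2d1 window was the richest in G and C, at 82.4%.

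The auxiliary channel subunits did not differ past the test either. Cacnb1, the beta subunit that carries the channel to the triad (ENSMUSG00000020882, chromosome 11, 98001508 to 98023034, minus strand), was the least abundant of the 10. Its level was 102, 102 and 97.7 FPKM in the libraries labelled KO and 102, 91.5 and 100.4 FPKM in those labelled WT (log2 difference 0.04, SE 0.08, limma adjusted p = 0.988). Its values differed by at most 1.11-fold among the 6 libraries.

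Cacng1 encodes the muscle gamma subunit (ENSMUSG00000020722, chromosome 11, 107703218 to 107716522, minus strand). Its level was 175, 211 and 180 FPKM in the libraries labelled KO and 178, 220.1 and 193 FPKM in those labelled WT (log2 difference -0.06, SE 0.11). Library 2 was the highest within each label. Without library 2 labelled WT the direction turned (0.02).

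Cacna2d1 encodes the extracellular alpha2delta subunit (ENSMUSG00000040118, chromosome 5, 15934691 to 16374511, plus strand). It had the smallest unadjusted p of the 10 genes (limma, 0.081) and the highest log2 difference. Its level was 109.7, 112 and 121 FPKM in the libraries labelled KO, with a mean ± SD of 114 ± 5.90 (n = 3), against 111, 97.7 and 96.1 FPKM in those labelled WT, with a mean ± SD of 101 ± 7.98 (n = 3). Library 1 labelled WT fell among the libraries labelled KO, and libraries 2 and 3 labelled WT were below all of them. The labels differed by 0.17 on the log2 scale (SE 0.09, interval -0.03 to 0.36, limma adjusted p = 0.988).

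Stac3 encodes an adaptor that couples the L-type channel to the ryanodine receptor (ENSMUSG00000040287, chromosome 10, 127501686 to 127508823, plus strand). It varied by at most 1.12-fold among the 6 libraries, at 213, 221 and 231 FPKM in the libraries labelled KO and at 239, 229.7 and 234 FPKM in those labelled WT. The log2 difference was -0.08 (SE 0.07, interval -0.24 to 0.08), the smallest standard error of the 10 genes.

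The junctophilins Jph1 and Jph2, which anchor the sarcoplasmic reticulum to the transverse tubule, were at similar deposited levels. Jph1 is the form typical of skeletal muscle (ENSMUSG00000042686, chromosome 1, 16964560 to 17097889, minus strand), and its level was 168, 151 and 154 FPKM in the libraries labelled KO and 175, 144 and 144 FPKM in those labelled WT (log2 difference 0.04, SE 0.10). Jph2 is also used by the heart (ENSMUSG00000017817, chromosome 2, 163336242 to 163397993, minus strand), and its level was 172, 164 and 163 FPKM in the libraries labelled KO and 163, 185 and 184 FPKM in those labelled WT (log2 difference -0.09, SE 0.08). Without library 1 labelled WT the difference of Jph2 was -0.15. Libraries 2 and 3 labelled WT were the highest for Jph2 and the lowest for Jph1. The ratio of Jph2 to Jph1 within a library was 1.02, 1.09 and 1.06 in the libraries labelled KO and 0.933, 1.29 and 1.28 in those labelled WT. The exact two-sided permutation p of this ratio was 0.4, and 0.1 is the smallest p that 3 libraries against 3 can give.

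The remaining genes encode proteins of the junctional sarcoplasmic reticulum and were the most abundant of the 10. Jsrp1, whose product JP-45 binds the L-type channel and calsequestrin (ENSMUSG00000020216, chromosome 10, 80808496 to 80813498, minus strand), had a level of 399, 362 and 327 FPKM in the libraries labelled KO (mean 363 ± 35.8, SD, n = 3). In the libraries labelled WT it was at 368, 446 and 405 FPKM (mean 406 ± 38.8, SD, n = 3). Libraries 2 and 3 labelled KO lay below every library labelled WT, and library 1 labelled KO lay among them. The log2 difference was -0.16 (SE 0.10, interval -0.40 to 0.07, limma adjusted p = 0.988), and it ran from -0.23 without library 1 labelled KO to -0.09 without library 3 labelled KO.

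Trdn encodes triadin, which links the ryanodine receptor to calsequestrin (ENSMUSG00000019787, chromosome 10, 33080554 to 33476709, plus strand). Its level was 278, 330.4 and 349 FPKM in the libraries labelled KO, with a mean ± SD of 319 ± 36.7 (n = 3), against 319, 282 and 287 FPKM in those labelled WT, with a mean ± SD of 296 ± 20.3 (n = 3). The lowest of all 6 values was in library 1 labelled KO, and the other libraries labelled KO were the highest. Its log2 difference was 0.10 (SE 0.10, limma adjusted p = 0.988), with 0.20 without library 1 labelled KO and 0.04 without library 3 labelled KO.

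**Figure D2:**
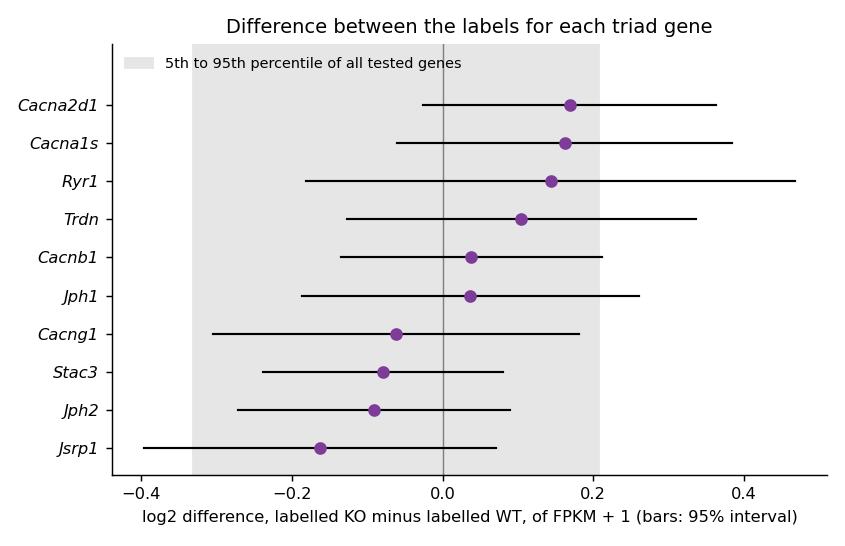
Log2 difference, libraries labelled KO minus libraries labelled WT on the log2(FPKM + 1) scale (x axis), for each triad gene, with its 95% interval from limma. The shaded band holds the middle of all tested genes (5th to 95th percentile, -0.33 to 0.21), every triad gene falls inside it, and every interval includes 0.

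The summed level of the 10 genes was 2041 to 2088 FPKM in the libraries labelled KO and 1987 to 2164 FPKM in those labelled WT. The spread between libraries was larger among those labelled WT for 7 of the 10 genes, while 55.0% of all tested genes had the larger coefficient of variation there. The absolute log2 difference had a median of 0.10 over the 10 genes, 0.09 over all tested genes and 0.07 over the 748 genes at least as abundant as Cacnb1. The lowest number of fragments behind any value was 1495 (Cacnb1), where counting error is 2.59%.

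As deposited, the order of the levels ran from Jsrp1 (384 FPKM over the 6 libraries) through Trdn (308), Ryr1 (233), Stac3 (228), Cacng1 (193), Cacna1s (181), Jph2 (172), Jph1 (156) and Cacna2d1 (108) to Cacnb1 (99.1). Trdn exceeded Ryr1, and Jph1 exceeded Cacna2d1, in all 6 libraries and with separate ranges. Stac3 exceeded Cacng1 in all 6 libraries, with ranges that overlap. Jsrp1 exceeded Trdn in 5 of 6 libraries and Ryr1 exceeded Stac3 in 3 of 6, in both pairs with ranges that overlap. Differences between neighbours were not tested. From Cacng1 to Jph1 the ranges of neighbours also overlapped, as did those of Cacna2d1 and Cacnb1.

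This order depends on the gene length used. For each of the 10 genes 1 whole length turned all 6 FPKM values into whole fragments, and for 8 of 10 it lay within 1 base of the mean length of the transcripts that GENCODE M21 lists for the gene, short and incomplete ones included. For Cacna1s it was 4182 bases, against 6251 for its longest coding transcript, and for Cacna2d1 3369 against 7436. The exceptions were Ryr1 (15357 bases) and Trdn (4514 bases), where the length was within 1 base of the longest coding transcript. Scaled by the longest coding transcript instead, Ryr1 and Trdn kept their levels (233 and 308), while Cacna1s was at 121, Stac3 at 125, Jph1 at 88.0, Cacnb1 at 52.7 and Cacna2d1 at 48.8. Jph2 (171) then stood above Cacna1s and Stac3.

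The ratio of Cacna1s to Ryr1 shows the same dependence. From the deposited FPKM it was 0.733, 0.792 and 0.837 in the libraries labelled KO (mean 0.787 ± 0.0525, SD, n = 3) and 0.843, 0.711 and 0.779 in those labelled WT (mean 0.778 ± 0.0662, SD, n = 3). An exact two-sided permutation test gave p = 0.8. Per longest coding transcript it was 0.527 ± 0.0351 in the libraries labelled KO and 0.520 ± 0.0443 in those labelled WT (SD, n = 3 each). In the same way the ratio of Jph2 to Jph1 was 1.86 ± 0.0550 in the libraries labelled KO and 2.06 ± 0.358 in those labelled WT. Either length is the same in all libraries, so a change of length scales a ratio by the same factor in both labels. The exact permutation p was 0.8 for Cacna1s to Ryr1 and 0.4 for Jph2 to Jph1 under either length. The size of a difference did change, and for Jph2 to Jph1 it was -0.111 as deposited and -0.195 per longest coding transcript.

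**Figure D3:**
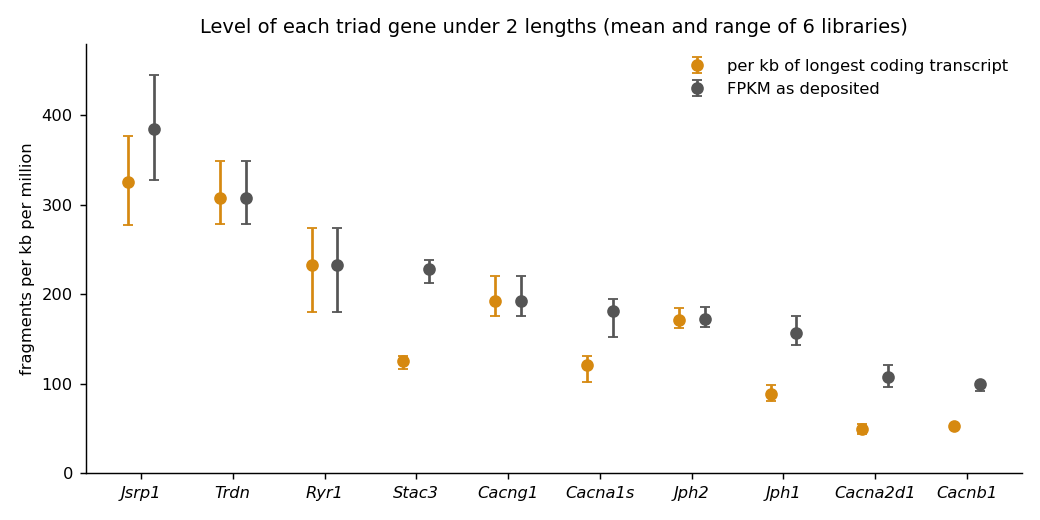
Level of each triad gene in fragments scaled by length and library total (y axis), with points for the mean and bars for the range of the 6 libraries, computed per longest coding transcript (orange) and as deposited (grey). Ryr1, Trdn and Cacng1 keep their level under either length, while Cacna1s, Stac3, Jph1, Cacna2d1 and Cacnb1 are lower per longest coding transcript.

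The libraries differed in how levels ran with transcript base composition, and the triad genes span much of that range. Their transcripts ranged from 36.8% G and C (Trdn) and 40.7% (Cacna2d1) over 46.7% (Jph1) to 61.8% (Jph2) and 64.6% (Jsrp1). Over all tested genes split into quintiles by transcript GC content, the quintile richest in G and C had a median deviation from the 6-library mean of 0.05, -0.07 and -0.09 log2 units in libraries 1, 2 and 3 labelled KO and of -0.05, 0.10 and 0.06 in those labelled WT. The quintile poorest in G and C had median deviations of -0.05, 0.01 and 0.06 in libraries labelled KO and 0.00, -0.04 and 0.01 in those labelled WT.

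Jsrp1, with the highest GC content of the 10, deviated by 0.06, -0.08 and -0.22 log2 units in the libraries labelled KO and by -0.06, 0.22 and 0.08 in those labelled WT, with the sign of the richest quintile in each library. Trdn, with the lowest, deviated by -0.14, 0.11 and 0.19 in the libraries labelled KO and by 0.06, -0.12 and -0.09 in those labelled WT, with the sign opposite to the richest quintile in each library. It shared the sign of its own quintile, the poorest, except in library 3 labelled WT, where that quintile was at 0.01. Jph2, with 61.8% G and C, also had the sign of the richest quintile in each library. Cacnb1, with 59.7%, shared that sign in 3 of 6 libraries and not in the others, deviating by 0.04, 0.04 and -0.02 in the libraries labelled KO and by 0.04, -0.11 and 0.02 in those labelled WT. Ryr1, with 58.0%, had the sign of the richest quintile except in library 2 labelled KO (0.08) and library 3 labelled WT (-0.11). Ryr1 in library 1 labelled WT deviated by -0.35 and Cacna1s by -0.24, more than the -0.05 of the richest quintile. With the GC trend of each library removed, a correction added after the data were examined, the log2 difference of Jsrp1 was -0.05 and that of Jph2 0.01, with the direction of Jph2 turned, while those of Ryr1 and Cacna1s were 0.22 and 0.21. limma called 0 of 10 genes after this correction (adjusted p of at least 0.993). At an unadjusted p under 0.05 there was 1 of 10, Cacna1s (limma, 0.0445), where 539 of all 11383 tested genes passed. The part of base composition in the differences between labels was not otherwise tested.

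**Figure D4:**
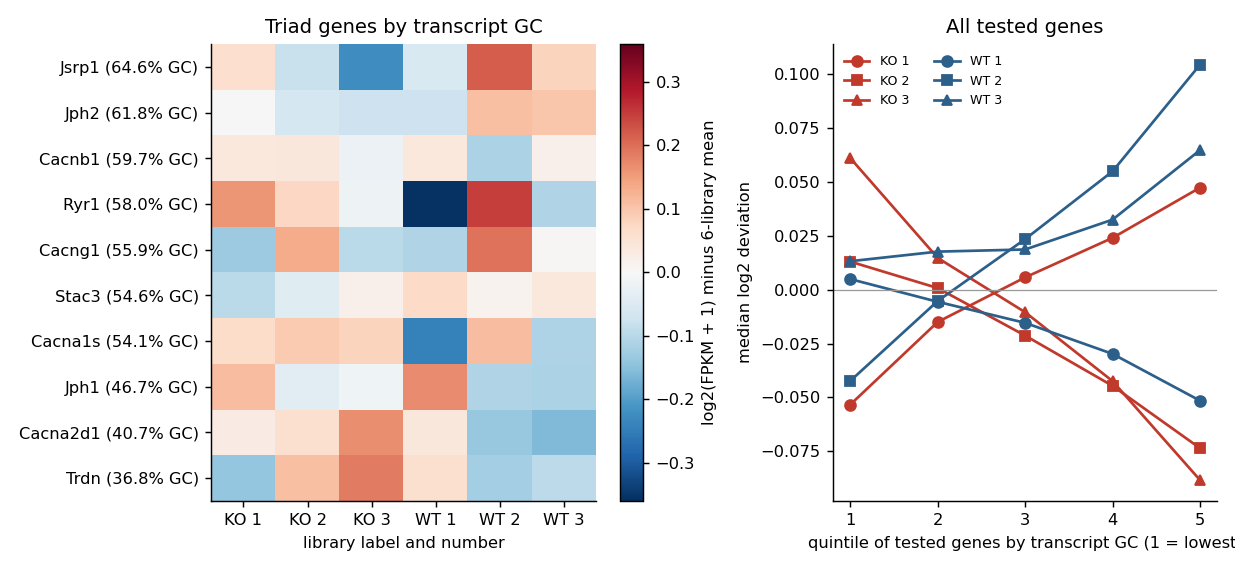
Left, deviation of each triad gene from its 6-library mean (colour, log2 scale) by library, with genes ordered by the GC content of the longest coding transcript. Right, median deviation of all tested genes (y axis, log2) in quintiles of GC content (x axis), 1 line per library. Jsrp1 at the top and Trdn at the bottom of the left panel take opposite signs in every library, and the richest quintile runs from -0.09 in library 3 labelled KO to 0.10 in library 2 labelled WT.

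Each channel gene of the 10 dominated its family at the level of FPKM, except the gamma subunit and the junctophilins. Ryr1 made up at least 99.89% of the summed FPKM of the 3 ryanodine receptor genes in every library, with Ryr2 and Ryr3 at most at 0.110 and 0.202 FPKM. Cacna1s made up 99.1% to 99.3% of the L-type pore genes Cacna1s, Cacna1c and Cacna1d in libraries labelled KO and 99.1% to 99.4% in those labelled WT. Stac3 made up at least 99.7% of the STAC genes, Cacnb1 at least 97.9% of the beta subunit genes and Cacna2d1 at least 95.8% of the alpha2delta genes in every library. Jph1 made up 47.9% to 49.4% of the junctophilin genes in libraries labelled KO and 43.7% to 51.7% in those labelled WT. These shares rest on the deposited lengths, and per longest coding transcript Jph1 was at 88.0 and Jph2 at 171. Cacng1 made up 66.5% to 70.6% of the gamma subunit genes in libraries labelled KO and 66.7% to 69.9% in those labelled WT. Most of the rest was Cacng6, another gamma subunit of skeletal muscle, at 80.0 ± 2.29 FPKM in libraries labelled KO and 79.7 ± 4.38 FPKM in those labelled WT (SD, n = 3 each).

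Of 23 paralogs of the triad genes, 7 passed the filter, 3 higher and 4 lower on average in the libraries labelled KO, and limma called 0 of them. limma voom also called 0. Cacng7 had values of 9.67, 8.94 and 7.57 FPKM in the libraries labelled KO, against 10.03, 10.1 and 11.1 FPKM in those labelled WT. Its log2 difference was -0.23 (limma adjusted p = 0.988). It was the 1 of 7 tested paralogs with ranges that did not overlap, where 5.64% of all tested genes were lower with such ranges. Cacna2d4, an alpha2delta subunit known from the retina, was at 3.47 ± 0.450 FPKM in libraries labelled KO and 3.38 ± 0.746 FPKM in those labelled WT (SD, n = 3 each). At an unadjusted p under 0.05 there was 1 of 7 paralogs, where 4.59% of all tested genes passed. This was Cacnb3, a beta subunit named after its values were seen, at 1.28, 0.663 and 0.344 FPKM in the libraries labelled KO and 1.42, 1.71 and 1.19 FPKM in those labelled WT (log2 difference -0.50, with 8 fragments in library 3 labelled KO, where counting error is 35.4%).

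The list of 36 other genes of excitation-contraction coupling holds partners of the triad, calcium pumps and calcium buffers. Of its 35 tested members, 14 were higher and 21 lower on average in the libraries labelled KO, with a median log2 difference of -0.03, and limma and limma voom called 0. Among the most abundant members, Atp2a1, the calcium pump of fast fibres, was at 8820.2 ± 568 FPKM in libraries labelled KO and 8237 ± 598 FPKM in those labelled WT. The calcium buffer gene Pvalb was at 7444 ± 840 FPKM in libraries labelled KO and 7965 ± 1684 FPKM in those labelled WT. Casq1, the calsequestrin of fast fibres to which triadin binds, was at 1317 ± 83.0 FPKM in libraries labelled KO and 1402 ± 159 FPKM in those labelled WT. The potassium channel gene Tmem38a of the reticulum was at 576 ± 22.5 FPKM in libraries labelled KO and 564 ± 14.1 FPKM in those labelled WT. Srl, which encodes sarcalumenin, was at 526 ± 10.1 FPKM in libraries labelled KO and 529 ± 40.1 FPKM in those labelled WT (SD, n = 3 each for all 5).

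At an unadjusted p under 0.05 there were 2 of 35 members of this list, both lower on average in the libraries labelled KO, where 4.59% of all tested genes passed in either direction, so the share is near that of all genes. Casq2, the calsequestrin of slow and cardiac muscle, had values of 56.0, 69.3 and 62.0 FPKM in the libraries labelled KO, against 72.3, 115 and 114 FPKM in those labelled WT (log2 difference -0.65, SE 0.18, limma adjusted p = 0.988). Atp2a2, the calcium pump of slow and cardiac muscle, had values of 11.2, 10.4 and 11.6 FPKM in the libraries labelled KO, against 15.7, 21.8 and 13.4 FPKM in those labelled WT (log2 difference -0.55, SE 0.16, limma adjusted p = 0.988). Both had ranges that did not overlap. The 8 slow-fibre markers, Atp2a2 among them, were all lower on average in the libraries labelled KO, 5 of them at an unadjusted p under 0.05, where 4.59% of all tested genes passed. The ranges of the labels did not overlap for 4 of the 8 markers, all 4 lower in the libraries labelled KO. Of all tested genes, 5.64% were lower with ranges that did not overlap. The 8 markers summed to 359, 412 and 291 FPKM in the libraries labelled KO and 586, 635 and 329 FPKM in those labelled WT. In these sums libraries 1 and 2 labelled WT stood apart and library 3 labelled WT did not. The slow myosin gene Myh7 had values of 0.549, 0.650 and 0.714 FPKM in the libraries labelled KO, against 7.23, 14.3 and 0.876 FPKM in those labelled WT, and Tnnc1 was lowest of all in library 3 labelled WT (3.28 FPKM). The part of slow fibres in the values of Casq2 and Atp2a2 was not tested.

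The ranges of the labels did not overlap for 5 of 35 members, all 5 lower in the libraries labelled KO, where 5.64% of all tested genes were lower with ranges that did not overlap. Besides Casq2 and Atp2a2 these were Fkbp1a, Selenon and Camk2d, named after their values were seen. Fkbp1a, whose product FKBP12 binds and stabilises the ryanodine receptor, had values of 116, 110.4 and 116 FPKM in the libraries labelled KO, against 122, 122 and 124 FPKM in those labelled WT (log2 difference -0.10, SE 0.07, limma adjusted p = 0.988). Selenon, which encodes a selenoprotein of the reticulum, was at 2.39 to 2.75 FPKM in libraries labelled KO and 2.85 to 3.64 FPKM in those labelled WT. Camk2d, a calcium-dependent kinase gene, was at 19.0 to 19.8 FPKM in libraries labelled KO and 19.9 to 23.5 FPKM in those labelled WT.

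**Figure D5:**
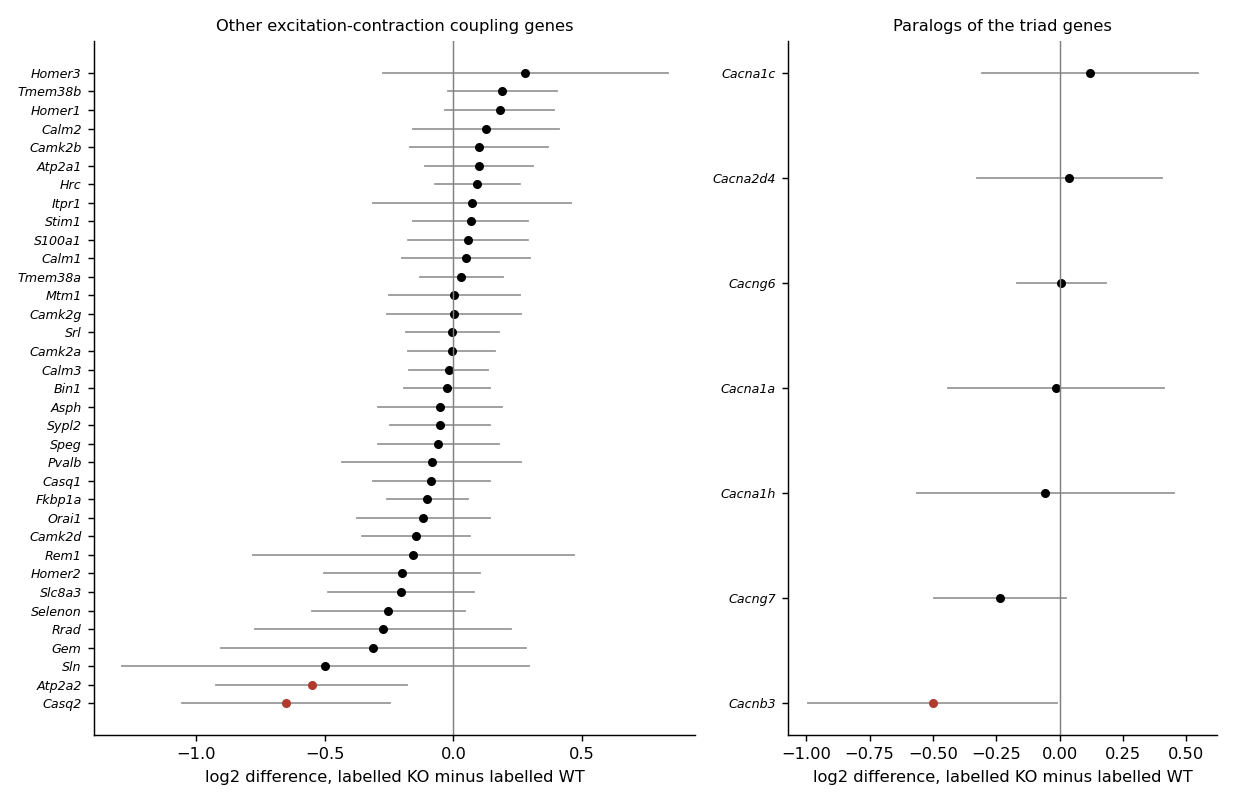
Log2 difference, libraries labelled KO minus libraries labelled WT (x axis), with 95% intervals, for the 35 tested genes of excitation-contraction coupling outside the triad set (left) and the 7 tested paralogs (right). Red points have an unadjusted p under 0.05 (Casq2, Atp2a2 and Cacnb3), and 0 genes pass limma's adjusted test.

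Fibroblast markers summed to 222 to 306 FPKM in libraries labelled KO and 215 to 447 FPKM in those labelled WT, and leukocyte markers to 27.8 to 36.6 FPKM in libraries labelled KO and 29.8 to 71.5 FPKM in those labelled WT. Endothelial markers summed to 123 to 143 FPKM in libraries labelled KO and 104 to 167 FPKM in those labelled WT. Tendon markers summed to 39.2 to 59.1 FPKM in libraries labelled KO and 41.7 to 107 FPKM in those labelled WT, and all 7 tested fibroblast, 6 endothelial, 3 leukocyte, 4 adipocyte and 4 tendon markers were lower on average in libraries labelled KO. Over all tested genes 43.3% were higher on average there, and the endothelial marker Pecam1 differed by only -0.001. Of these markers, limma gave an unadjusted p under 0.05 for Thy1 (0.00164, with separate ranges), Lyz2 (0.0391) and Retn (0.0481). Their limma adjusted p was 0.988. Of all tested genes, 4.59% had an unadjusted p under 0.05, and 5.64% were lower with separate ranges. The 5 smooth muscle markers other than Des, which skeletal fibres also express, summed to 158 to 185 FPKM in libraries labelled KO and 129 to 232 FPKM in those labelled WT. Adipocyte markers summed to 7.96 to 16.2 FPKM in libraries labelled KO and 7.80 to 21.4 FPKM in those labelled WT, and Schwann cell markers to 85.7 to 100.1 FPKM in libraries labelled KO and 87.5 to 108 FPKM in those labelled WT. Cardiomyocyte markers summed to 6.93 to 9.29 FPKM in libraries labelled KO and 6.86 to 7.70 FPKM in those labelled WT. For the fibroblast, endothelial, leukocyte, adipocyte and tendon lists and the 5 smooth muscle genes, libraries 2 and 3 labelled WT had the highest sums, and their part in the triad values was not tested.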

How the data were processed

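The authors deposited 1 table per library with 1 FPKM value per Ensembl mouse gene, and TopHat2 2.1.1, Cufflinks 2.2.1 and the build mm10 are named per the submitters' processing notes. What each tool did, which annotation was used and whether strand was used are not stated in the labels. Group and replicate number were read from each title.

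Symbols, positions, exons and transcript lengths came from GENCODE M21 (mm10), and start-site windows from RefSeq (GRCm38.p6). The log2(FPKM + 1) values of the 11383 genes whose mean reached 1 FPKM entered limma (version 3.58.1, R 4.3.3) with a mean-variance trend, labelled KO minus labelled WT, and p-values were adjusted by Benjamini-Hochberg over all of them. A fold change on this scale understates the change of low genes. Ratios were compared by exact permutation. The members and lists were chosen with earlier results of these data known. Named genes are all members and, of the other lists, genes past the test, genes with separate ranges and an unadjusted p under 0.05, and the most abundant 5 or 3, unless said otherwise.

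Whole fragments were recovered from FPKM for all 23559 genes above 0 (tolerance 0.002 fragments, lengths of 20 to 110000 bases). Counting errors cover sampling of fragments only. All pairs of libraries differed by more than sampling noise (chi-square per degree of freedom of at least 7.04). At most 0.02% of the 50-base words of a member occur in the same direction in transcripts of genes outside the 10. Reverse complements and the other members were not searched. The fit was tested on simulated data whose changes were far larger than the differences of the triad genes. That test does not bear on changes of their size. Python 3.11.15 with numpy 2.4.6, pandas 2.3.3 and matplotlib 3.10.9 was used. Alternatives were median subtraction, quantile normalization, a pseudocount of 0.1, other filters, the replicate number as a block, no trend, limma voom on recovered fragments and leaving out each library. Removal of a GC trend (loess, span 0.5) and the longest transcript's length were added after seeing the data.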

Additional observations from a re-analysis of the deposited data

How the results depend on the processing

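Under the 15 alternatives, 0 triad genes, 0 other excitation-contraction coupling genes and 0 tested paralogs passed the adjusted test. Over all tested genes the count was 0, and 0 to 3 when 1 library was left out (1 without library 3 labelled KO, 1 without library 1 labelled WT, 3 without library 3 labelled WT). The median log2 difference of the triad genes, 0.04, was 0.084 after subtracting each library's median, a step that put the median of all tested genes at 0.02 in place of -0.02, and 0.006 to 0.047 when 1 library was left out. At an unadjusted p under 0.05 limma gave 1 triad gene without library 1 labelled WT (Cacna2d1, 0.0204), where 1356 of all 11383 tested genes passed. It gave 2 without library 2 labelled WT (lowest Cacna1s, 0.0169), where 356 of all tested genes passed. There was 1 with the GC trend removed, where 539 of all tested genes passed, and 0 in the other alternatives.

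Directions turned for 4 triad genes and Mettl21e. Leaving out 1 library gave -0.0091 to 0.066 for Cacnb1, -0.144 to 0.020 for Cacng1, -0.011 to 0.131 for Jph1, and -0.068 to 0.632 for Mettl21e. Removing the GC trend gave 0.0092 for Jph2, and the cause was not tested. The difference in the ratio of Cacna1s to Ryr1, 0.00963, ran from -0.0238 to 0.0424 when 1 library was left out, and that of Jph2 to Jph1, -0.111, from -0.228 to -0.0515.

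No pairing by replicate number was seen in the values: same-numbered libraries had deviations that correlated at 0.024, -0.041 and 0.023. Libraries of different number had correlations from -0.052 to 0.032. Whether same-numbered libraries were paired is not stated, and a pairing without a shared deviation would not show here. With the replicate block 0 genes were called, and 472 had an unadjusted p under 0.05, against 523 without the block. In this balanced design the block cannot change a difference, and Ryr1 has 0.14 in either fit.

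With 3 libraries per label, even a log2 difference of -0.65 (Casq2) did not pass the adjusted test. Mettl21e has no value under the filter of 5 FPKM, which it did not pass.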
